A study of Homo sapiens with 15 samples.

Results

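Unsorted cells of the line SUM159PT were compared with the cancer stem cell (CSC) fraction of the line SUM149PT, with 3 libraries in each group and 6 of the 15 libraries of the series in all. The members were chosen as the columns of the deposited expression table that belong to these groups, and 11021 of its 33158 genes were tested, those whose mean over the 6 libraries was at least 1 FPKM (fragments mapped to a gene, scaled by transcript length and library size). SUM159PT and SUM149PT are established human triple negative breast cancer lines. SUM149PT CSCs were detached with trypsin and sorted by FACS as cells positive for CD44 with absent or low CD24. SUM159PT was instead sequenced as a whole population that the labels count among the stem cells. The paper considers it as CSCs and gives nearly all of its cells as CD44-positive and CD24-negative. The remaining 9 libraries (non-CSCs of SUM149PT, and CSCs and non-CSCs of HCC1937, a further triple negative line) enter only as values beside the comparison. Messenger RNA was selected on oligo(dT) beads before sequencing.

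Line and sorting differ together between the groups, and their parts in any difference cannot be told apart. The labels describe extraction and library making alike for all 15 libraries and do not say whether these were made at the same time. No label says whether the 3 libraries of a group came from separate cultures, so each p-value measures the difference only against the spread between these libraries. The table holds FPKM without read counts, and the depth of each library is therefore unknown. In such bulk samples, fewer cells expressing a gene and less of its RNA per cell cannot be told apart.

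Triple negative tumours lack the oestrogen and progesterone receptors and amplified ERBB2, and their lines range from basal-like, with keratins and cell junctions, to mesenchymal-like. Lines of the mesenchymal-like kind make little E-cadherin and few claudins, and a CD44-positive, CD24-low surface is then a property of nearly the whole culture, while in a basal-like line it marks a fraction that a sort can enrich. Transcription factors of the epithelial to mesenchymal transition (EMT), such as ZEB1 and SNAI1, repress junction genes in many carcinoma cells.

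The labels were first set against the RNA of the markers that define them, which the sort reads as surface protein, a different measure. CD44, the hyaluronan receptor of the sort, was listed at 28.6, 29.4 and 28.4 FPKM in SUM159PT replicates 1 to 3 and at 83.4, 82.9 and 86.8 in SUM149PT CSC. CD24, the surface protein that the sort selects against, was at 0.759, 0.682 and 0.745 in SUM159PT and at 7.97, 7.64 and 7.61 in the CSCs. Both genes were thus lower in every SUM159PT library, and CD24 kept to a low level in each of them. The log2 fold change (SUM159PT minus SUM149PT CSC of log2(FPKM + 0.1)) of CD44 was -1.55 as deposited and 0.77 with the trends removed, a change of sign taken up with the trends below. For CD24 it was -3.24 as deposited and -1.80 with the trends removed. Of the receptors that name the tumour class, ESR1 was at 0.00998, 0.00544 and 0.00521 FPKM in SUM159PT and 0.0688, 0.103 and 0.0506 in the CSCs, and PGR was listed at 0 in all but the second CSC library, at 0.00303. ERBB2, the third receptor, was at 17.4, 19.8 and 19.999 in SUM159PT against 3.46, 3.80 and 3.39, higher in each SUM159PT library without overlap.

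Markers of other cell types were looked at next. Of 18 leukocyte markers 2 reached the minimum of 1 FPKM, CD14 and CD68, and the list summed to 50.6, 54.2 and 48.4 FPKM in SUM159PT and 19.5, 19.7 and 18.7 in the CSCs, with CD68 the most abundant in both. All 10 endothelial markers were under 1 FPKM in all 6 libraries, and their sum was 0.685, 0.444 and 0.785 in SUM159PT and 1.24, 1.08 and 1.09 in the CSCs, with ESAM highest. Among 14 fibroblast and adipocyte markers, 6 were tested and the sum was 85.6, 83.2 and 84.2 against 294, 299 and 293, led by PDPN in SUM159PT and by the collagen gene COL1A1 in the CSCs, genes that carcinoma cells can also express. Here 3 of the 14 and 7 of the 18 leukocyte markers were listed at 0 in all 6 libraries.

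As whole profiles the groups stood far apart. Summed FPKM was 652082, 646697 and 634746 in SUM159PT and 291276, 316860.4 and 300811 in the CSCs, 2.13 times as much on average. In spite of the larger sum, fewer genes exceeded 1 FPKM, 8534, 8630 and 8670 against 11253, 11249 and 11262, and the median of the tested genes was 3.93, 4.09 and 4.04 FPKM against 7.64, 7.75 and 7.69. The 10 most abundant genes took 19.4, 19.2 and 18.8 percent of the sum in SUM159PT and 9.6, 10.3 and 10.2 percent in the CSCs. None of these totals overlapped between the groups, and each gave a two-sided exact permutation p of 0.10, the smallest that 3 against 3 libraries allow. Across the tested genes the Pearson correlation of log2 values was 0.986 to 0.990 between SUM159PT libraries, 0.969 to 0.970 between CSC libraries, and 0.552 to 0.600 between the groups.

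limma called 7617 of 11021 genes (69.1 percent) with an adjusted p no larger than 0.05 and a log2 fold change of 1 or more in either direction. Of these, 2685 were higher in SUM159PT (24.4 percent of those tested) and 4932 were lower (44.8 percent), with a median log2 fold change over all genes of -0.64. With so many genes called, a call by itself says little, and counts in the lists below are to be read against these shares. Lack of overlap between the groups says little as well. The adjusted p alone was within 0.05 for 10147 of the 11021 genes. In the lists below, 4 of 23 tested TGF-beta, activin and BMP genes overlapped, and 4 of 75 ribosomal protein genes. The share of all tested genes without overlap is not given here. The direction of the whole distribution depended on the scale. Its median was 0.28 after centring each library on its own median, -0.58 after upper quartile scaling, 0.05 after quantile normalization, and -1.72 after rescaling every library to the same sum (TPM).

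Much of the spread followed 2 properties of the transcripts, their GC content and their length. Across the 10631 tested genes with an annotated transcript, the fold change rose with GC content (Spearman's rho 0.660) and fell with transcript length (rho -0.473); genes are not independent replicates, so this is a description without a p. In the decile of genes with the lowest GC content, 31.8 to 39.0 percent, the median log2 fold change was -3.35, with 17 of 1065 genes called higher and 977 called lower. In the decile with the highest, 62.6 to 74.7 percent, it was 1.12, with 564 of 1061 called higher and 81 lower. The shortest decile of transcripts had a median of 1.26 and the longest, from 6917 bases, one of -2.86. GC content alone accounted for 42.7 percent of the variance of the fold change, length for 22.0 percent, and both together for 51.3 percent.

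The trend with GC content set SUM159PT apart from every sorted library. Each pair of libraries was compared directly, and the difference of log2 values rose with GC content in all 36 pairs of a SUM159PT library minus a sorted one (rho 0.590 to 0.664). The absolute rho was at most 0.119 between SUM159PT libraries, 0.397 within a sorted group and 0.337 between sorted groups, so weaker trends were present among the sorted libraries as well. SUM159PT is the only group that was not sorted, so that line and sorting cannot be separated as sources of the trend. Whether these libraries also differed in library making or quantification run is not known, and the cause of the trend was not tested. A smooth trend on GC content and length was subtracted from each library, and values with the trends removed are given beside those as deposited: where 2 fold changes or medians below are joined by "or", the first is as deposited and the second has the trends removed. Any difference between the groups that itself follows GC content or length is removed with it.

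With the trends removed, the correlation with GC content was 0.0550 and that with length was -0.0454, and 4649 of 10631 genes were called (43.7 percent), 2394 higher (22.5 percent) and 2255 lower (21.2 percent). The sign of the fold change differed from the deposited scale in 25.6 percent of the genes. Among the 2685 genes higher as deposited, 1427 were again higher, 1095 were not called, 0 were lower and 163 had no annotated transcript. Among the 4932 lower, 1906 were again lower, 2653 were not called, 259 became higher and 114 had no annotation. A call as lower on the deposited scale was thus lost more often than it was kept. The curves of median fold change by decile of GC content and of length show the slope and what is left of it.

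**Figure D1:**
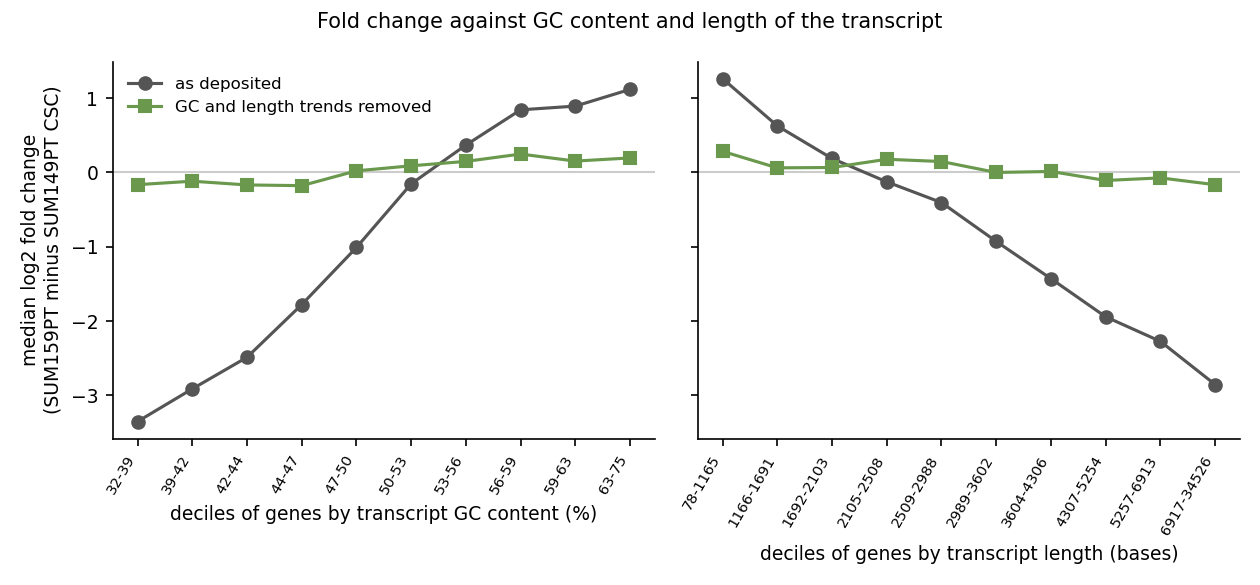
Median log2 fold change (SUM159PT minus SUM149PT CSC, vertical axis) of the tested genes in deciles by transcript GC content in percent (left) and by transcript length in bases (right), as deposited (circles) and with both trends removed (squares). On the deposited scale the median runs from -3.35 to 1.12 along GC content and from 1.26 to -2.86 along length, and with the trends removed the squares lie near 0.

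Genes were then read in lists by their role. For each list the median log2 fold change was taken on 8 scales, which are FPKM as deposited, centred, upper quartile scaled, quantile normalized and TPM, and with the trend on GC content, on length or on both removed. The plot of list medians gives all lists with at least 5 tested genes. Farthest below the median of all genes, with the trends removed, lay the matriptase system, the immediate early and stress genes, the keratins, the cytokines and the epithelial lists, and farthest above it the ribosomal proteins, the cell cycle genes, the cancer-testis antigens and the respiratory chain; the cell cycle median alone among these changed sign, to -0.50 as TPM.

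**Figure D2:**
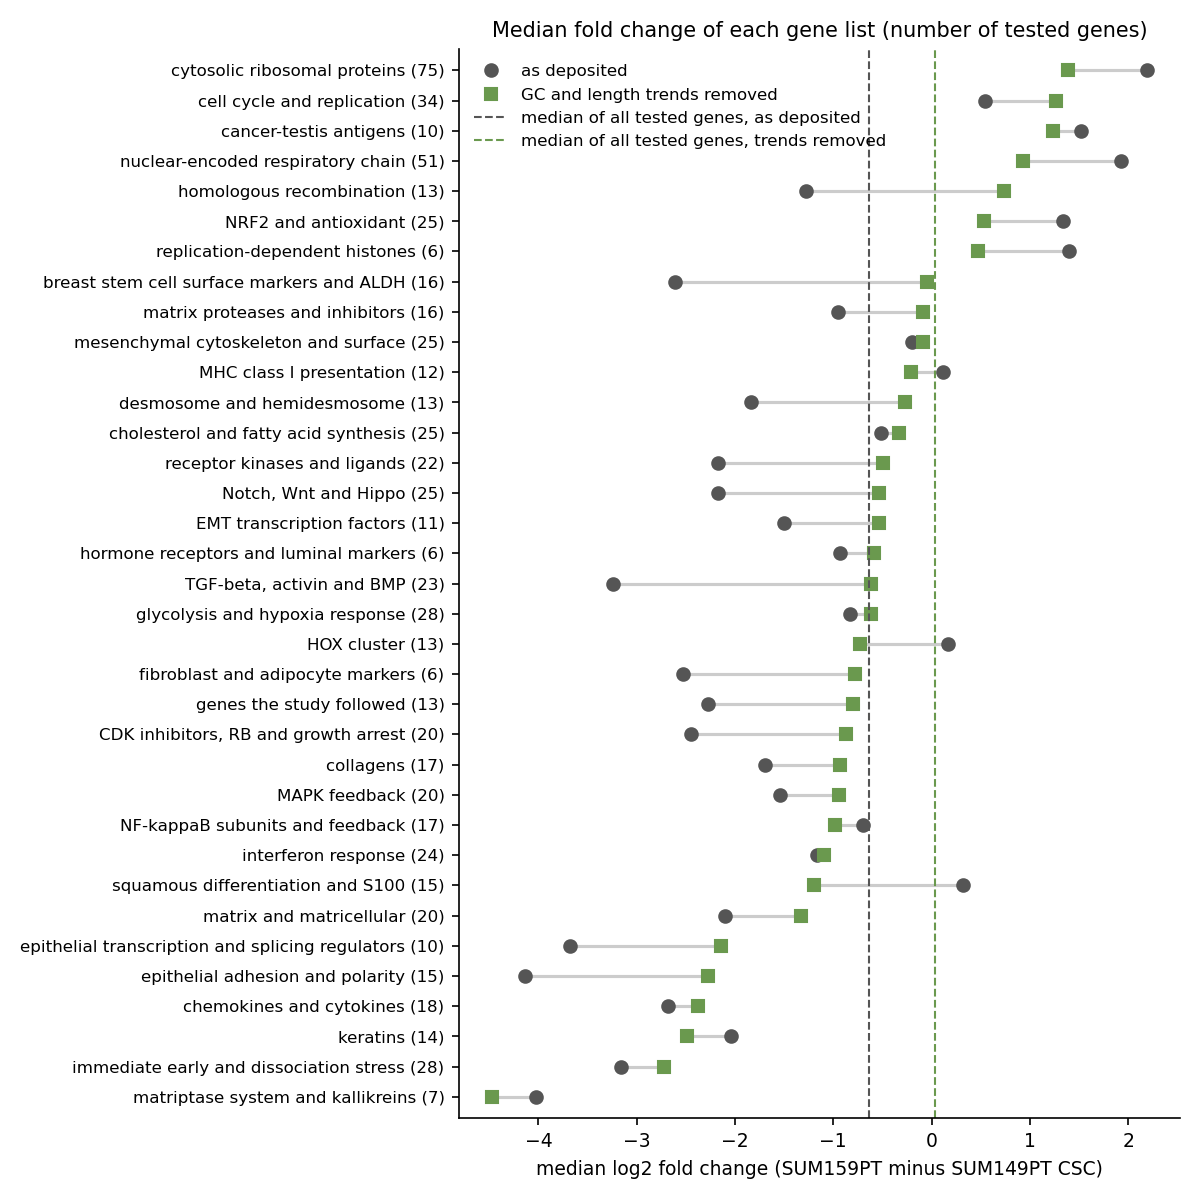
Median log2 fold change (horizontal axis) of each gene list with at least 5 tested genes, as deposited (circles) and with GC and length trends removed (squares), with the number of tested genes in brackets. Dashed lines mark the medians of all tested genes, -0.64 as deposited and 0.03 with the trends removed; the epithelial, keratin, matriptase, cytokine and immediate early lists lie to the left of both lines with either symbol.

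Epithelial cells hold together through E-cadherin and claudins, and genes of adhesion and polarity were lower in SUM159PT. CDH1, which encodes E-cadherin, was listed at 0.0457, 0.0701 and 0.0886 FPKM in SUM159PT and at 3.37, 3.04 and 3.56 in the CSCs. EPCAM, an epithelial adhesion molecule, was at 0.0683, 0.0486 and 0.0233 against 2.39, 2.03 and 3.03. CLDN4, a tight junction claudin, was at 0.180, 0.352 and 0.489 against 17.6, 19.9 and 20.5, and the claudin CLDN7 at 0.160, 0.119 and 0.119 against 8.77, 7.98 and 8.68. In all of these genes every SUM159PT library lay below every CSC library, and all SUM159PT values were under 1 FPKM. Log2 fold changes were -4.35 or -2.92 for CDH1, -4.13 or -3.59 for EPCAM, -5.53 or -5.60 for CLDN4 and -5.21 or -6.38 for CLDN7, with limma adjusted p at most 3.83e-07 as deposited and 1.16e-06 with the trends removed. Their size depends on the 0.1 FPKM added before the logarithm, since the SUM159PT values lie near it: on the deposited scale the log2 fold change was -5.45 for CDH1, -5.52 for EPCAM, -5.89 for CLDN4 and -5.91 for CLDN7 when 0.01 was added, and -2.02, -1.73, -3.93 and -3.06 when 1 was added. The same holds for other genes near 0 in a group. CLDN1, the highest of the list in the CSCs, was at 2.13, 2.14 and 2.37 against 68.3, 68.5 and 69.1. Levels in the CSCs were themselves modest, with CDH1 and EPCAM under 4 FPKM.

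Of 25 listed genes of adhesion and polarity, 15 were tested, and 12 were called lower and 2 higher, against 44.8 and 24.4 percent of all genes; with the trends removed 11 were lower and 1 higher. The median was -4.13 or -2.27, and it was below 0 on all 8 scales, between -5.42 and -2.27. The list summed to 16.1, 17.1 and 17.5 FPKM in SUM159PT and to 166, 166 and 172 in the CSCs. MUC1, a membrane mucin, was the exception on both scales, at 2.12, 2.38 and 2.15 against 0.349, 0.478 and 0.289 (log2 fold change 2.31 or 1.02).

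Transcription factors that keep epithelial programmes active moved the same way. ELF3, an epithelial ETS factor, was at 0.994, 1.01 and 0.958 FPKM in SUM159PT and 30.7, 35.1 and 32.7 in the CSCs, and its relative EHF at 0.101, 0.104 and 0.0980 against 19.7, 19.3 and 18.4. KLF5, a zinc finger factor of basal epithelium, was at 2.06, 2.35 and 2.03 against 31.5, 27.8 and 28.1. The SUM159PT libraries were lower without overlap in each of these, and the log2 fold changes with the trends removed were -4.67, -4.22 and -2.25. GRHL1, a grainyhead factor, was at 0.0153 against 2.68 on average. TP63, the basal cell factor, was at 0.861, 0.822 and 0.713 against 12.1, 10.7 and 11.7, a fold change of -3.69 or -0.94 that passes the limit of 1 on the deposited scale only. Of 10 tested genes 8 were called lower and 0 higher (7 and 0 with the trends removed). The lower share was 80 and 70 percent, against 44.8 and 21.2 percent of all genes. The median of -3.67 or -2.14 was below 0 on all 8 scales.

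Keratins, the intermediate filaments of epithelium, did not move as one. KRT19, a simple epithelial keratin, was at 0.286, 0.428 and 0.530 FPKM in SUM159PT and 42.4, 41.1 and 42.3 in the CSCs. KRT17, a keratin of basal and activated epithelium, was at 1.17, 1.05 and 1.23 against 63.7, 68.2 and 67.1. These were low in SUM159PT, with log2 fold changes of -6.38 or -8.03 for KRT19 and -5.73 or -7.14 for KRT17. KRT5, a basal keratin, was at 1.41, 1.46 and 1.15 against 6.04, 5.58 and 5.30, lower with less distance. KRT7 was instead the most abundant keratin of both groups, at 1013, 896 and 1031 in SUM159PT and 305, 318 and 289 in the CSCs. The filament partners KRT8 and KRT18 were at 134, 130.4 and 131 against 34.6, 39.5 and 34.9 and at 156, 145 and 158 against 39.5, 41.8 and 41.4, higher in every SUM159PT library. With the trends removed the fold change of KRT8 was 1.01, that of KRT18 0.45 and that of KRT7 0.37, so that KRT8 alone of these stayed called. Of 14 tested keratins 8 were lower and 4 higher (8 and 1 with the trends removed). As deposited this is 57.1 percent lower and 28.6 percent higher, against 44.8 and 24.4 percent of all genes. With the trends removed it is 57.1 and 7.1 percent, against 21.2 and 22.5 percent. The median was -2.04 or -2.49, and it was below 0 on all 8 scales. The summed FPKM was nevertheless larger in SUM159PT, 1399, 1262 and 1418 against 604, 629.7 and 595. Reads of near-identical keratins such as KRT6A and KRT6B, or KRT81 and KRT86, may be shared between them, and these are not read singly.

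Anchoring junctions to the matrix split between partners of the same complex. ITGB4, the integrin chain of hemidesmosomes, was at 76.2, 85.2 and 87.5 FPKM in SUM159PT and 10.3, 9.89 and 9.96 in the CSCs, with log2 fold changes of 3.03 or 3.08. LAMB3, a chain of the laminin that this integrin binds, was at 48.03, 52.6 and 53.1 against 188, 185 and 179. The integrin chain was thus higher and the laminin chain lower in all 3 SUM159PT libraries, the latter with log2 fold changes of -1.84 or -1.98. DSP, the desmosomal plaque protein desmoplakin, was at 0.0275, 0.0494 and 0.0567 against 6.21, 5.76 and 5.85, while PKP3, a plaque armadillo protein, was higher, at 21.9, 22.2 and 24.6 against 3.18, 3.75 and 3.08. Over the 13 tested genes 8 were lower and 2 higher (5 and 3 with the trends removed). The lower share was 61.5 and 38.5 percent, against 44.8 and 21.2 percent of all genes. The median was below 0 on all 8 scales. It came from -1.84 to -0.26 with the trends removed, close to all genes.

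Epithelial surface proteolysis depends on matriptase and its inhibitors. ST14, which encodes matriptase, was at 0.0433, 0.0337 and 0.0115 FPKM in SUM159PT and 1.90, 1.999 and 2.09 in the CSCs. SPINT1, its membrane inhibitor, was at 0.334, 0.376 and 0.412 against 14.96, 12.9 and 13.1, and PRSS8, the protease prostasin of the same cascade, at 0.0201, 0.107 and 0.0859 against 4.60, 4.22 and 4.27. Both proteases and the inhibitor were thus lower without overlap, with log2 fold changes of -4.03 or -4.47 for ST14, -4.86 or -5.35 for SPINT1 and -4.74 or -5.94 for PRSS8. All 7 tested genes of the list were called lower with the trends removed, 5 of them also as deposited. As deposited this is 71.4 percent, against 44.8 percent of all genes, and 21.2 percent of these were lower with the trends removed. The list median was below 0 on all 8 scales (-5.54 to -2.32). Of 20 genes of squamous differentiation and the S100 family 15 were tested; their median was 0.32 as deposited and -1.20 with the trends removed, and it was above 0 on 4 of the 8 scales and below 0 on the other 4. S100A4, a calcium-binding protein linked to cell motility, was higher at 277, 313 and 308 against 14.7, 18.9 and 20.5, and S100A14 and LCN2, the secreted lipocalin, were lower at 0.0989, 0.427 and 0.310 against 7.25, 9.62 and 8.67 and at 3.13, 2.25 and 3.38 against 88.2, 96.7 and 95.2. Removing the trends left 2.69, -5.81 and -6.53; each kept its deposited direction.

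**Figure D3:**
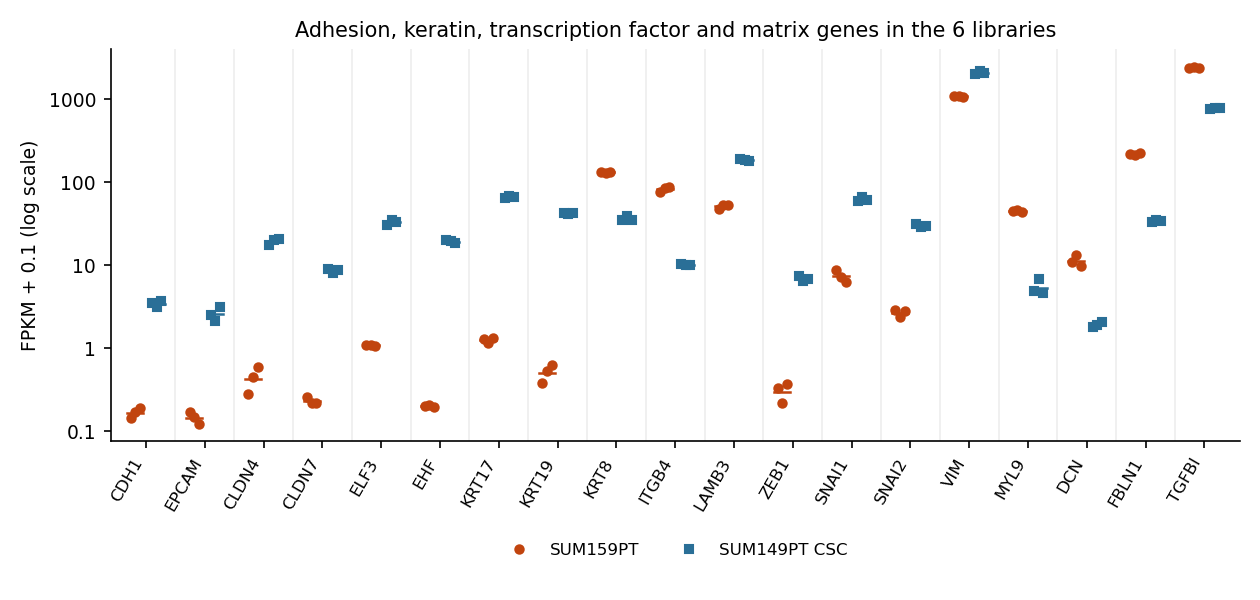
FPKM + 0.1 on a log scale (vertical axis) of adhesion, keratin, EMT factor and matrix genes in the 3 SUM159PT libraries (circles) and the 3 SUM149PT CSC libraries (squares); short lines mark the mean of the log values. The groups do not overlap in any gene shown, and CDH1, EPCAM and CLDN7 stay below 1 in all SUM159PT libraries while VIM is high in all 6.

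Low junction genes did not come with higher ZEB1, SNAI1 or SNAI2. ZEB1, a repressor of CDH1, was at 0.228, 0.117 and 0.268 FPKM in SUM159PT and 7.39, 6.43 and 6.63 in the CSCs. SNAI1, the Snail repressor, was at 8.62, 7.18 and 6.16 against 58.9, 65.4 and 61.5, and SNAI2, or Slug, at 2.75, 2.30 and 2.71 against 31.1, 28.5 and 29.6. Each was higher in every CSC library, the group with more CDH1. Log2 fold changes were -4.54 or -1.30 for ZEB1, -3.08 or -4.29 for SNAI1 and -3.47 or -1.26 for SNAI2, so most of the ZEB1 difference was shared with genes of like GC content and length. FOXQ1, a forkhead factor, went the other way at 10.2, 10.8 and 9.69 against 2.38, 1.84 and 2.15, and TWIST2 was at 39.1, 37.997 and 39.4 against 11.4, 11.7 and 12.6 with a fold change of 1.70 or 0.31. Of 11 tested factors 6 were lower and 2 higher (5 and 1 with the trends removed; 54.5 and 45.5 percent lower, against 44.8 and 21.2 percent of all genes); the median was -1.50 or -0.53, and below 0 on all 8 scales.

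Mesenchymal cytoskeletal genes were called no more often than all genes in either direction, as deposited or with the trends removed. VIM, the mesenchymal intermediate filament vimentin, was abundant in both groups, at 1091, 1082 and 1062 FPKM in SUM159PT and 2008, 2187 and 2075 in the CSCs (log2 fold change -0.95 or -1.35). MYL9, a regulatory light chain of contractile myosin, was higher at 44.7, 46.2 and 44.02 against 4.74, 6.66 and 4.50, as was the actin-binding TAGLN at 23.5, 21.7 and 20.8 against 2.13, 2.96 and 2.45. FLNA, the actin crosslinker filamin, was at 315, 408 and 408 against 143, 139 and 143. These contractile genes were higher without overlap, by 2.53, 2.47 and 1.66 with the trends removed, whereas TPM1, a tropomyosin, was lower at 6.16, 6.47 and 6.27 against 44.6, 43.6 and 44.8 (-2.80 or -4.10). Of 25 tested genes 9 were lower and 6 higher (4 and 5 with the trends removed), and the median of -0.20 or -0.08 was above 0 on 2 of the 8 scales, at 0.72 when centred and 0.79 with the length trend removed.

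Matrix genes went both ways, each group having its own set. TGFBI, a secreted adhesion protein, was at 2345, 2436 and 2387 FPKM in SUM159PT and 758, 792 and 781 in the CSCs. FBLN1, the matrix protein fibulin, was at 219.9, 215 and 223 against 33.3, 34.7 and 34.4, and DCN, the proteoglycan decorin, at 10.9, 13.3 and 9.61 against 1.68, 1.78 and 1.94. THBS1, thrombospondin, was at 44.1, 46.5 and 52.005 against 15.2, 14.2 and 14.8. These were higher in all 3 SUM159PT libraries, with fold changes of 1.62 or 1.62 for TGFBI, 2.68 or 2.35 for FBLN1, 2.57 or 6.15 for DCN and 1.68 or 4.11 for THBS1; TGFBI was at -0.16 after quantile normalization and above 0 under the other scalings tried. IGFBP5, a secreted binder of insulin-like growth factors, was at 0.0379, 0.0876 and 0.0571 against 23.9, 23.1 and 23.7, and its relative IGFBP7 at 25.4, 24.99 and 21.1 against 199, 210.3 and 201. SPARC, a collagen-binding glycoprotein, was at 52.6, 59.9 and 53.8 against 342, 362 and 350.1, and MFAP2, a microfibril protein, at 0.0736, 0 and 0.0390 against 4.95, 5.98 and 5.11. This second set was lower without overlap, with log2 fold changes of -6.21, -3.86, -1.23 and -7.12 with the trends removed. Of 20 tested matrix genes 13 were lower and 6 higher, 12 and 6 with the trends removed (65 and 60 percent lower, against 44.8 and 21.2 percent of all genes), the median was -2.10 or -1.33, and it was below 0 on all 8 scales.

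The median collagen was lower in SUM159PT on all scales but that with the length trend alone removed. COL1A1 was at 18.9, 19.2 and 22.3 FPKM against 216, 219 and 213, and COL7A1, the collagen of anchoring fibrils, at 17.7, 26.6 and 27.5 against 261, 273 and 252. No collagen among 17 tested was called higher as deposited and 11 were lower (8 lower and 1 higher with the trends removed; 64.7 and 47.1 percent lower, against 44.8 and 21.2 percent of all genes), and the median of -1.70 or -0.93 reversed only with the length trend removed alone, at 0.58 with 5 higher and 3 lower. Proteases were mixed, with 8 of 16 lower and 3 higher (6 and 3 with the trends removed; 50 and 37.5 percent lower, against 44.8 and 21.2 percent of all genes) and a median of -0.95 or -0.08 that was 0.03 with only the length trend removed. MMP1, the interstitial collagenase, was at 0.0305, 0 and 0 against 8.65, 11.03 and 9.31, and PLAU, the urokinase plasminogen activator, at 8.08, 7.56 and 7.50 against 213, 224 and 212. MMP2, a gelatinase, was higher, at 235, 243 and 237 against 94.2, 99.96 and 100.5. With the trends removed these were -4.88, -4.82 and 1.18, so the collagenase and the gelatinase went opposite ways.

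Surface markers and aldehyde dehydrogenases are used to find breast stem cells. ALDH1A3, the dehydrogenase behind much of the ALDEFLUOR activity of breast cells, was at 0.892, 1.03 and 1.05 FPKM in SUM159PT and 28.9, 25.95 and 28.2 in the CSCs. PROCR, the protein C receptor, was at 129, 143 and 119.9 against 34.4, 37.5 and 36.6, and the integrin chain ITGB3 at 2.89, 3.59 and 2.91 against 32.2, 29.7 and 31.8. ALDH1A3 and ITGB3 were lower without overlap, with log2 fold changes of -4.67 or -4.02 for ALDH1A3 and -3.28 or -2.79 for ITGB3, and PROCR was higher, by 1.85 or 0.96. NT5E, the ectonucleotidase CD73, was at 0.727, 0.599 and 0.798 against 16.8, 16.9 and 17.2, a log2 fold change that went from -4.41 to -1.97. Of 16 tested markers 10 were lower and 2 higher as deposited, and 7 and 3 with the trends removed (62.5 and 43.8 percent lower, against 44.8 and 21.2 percent of all genes), where the median was -0.05 in place of -2.61; it was below 0 on all 8 scales. Labels call both groups stem cells, and with the trends removed this median lay within 0.1 of that of all genes. Of the tested markers 7 were called lower on both scales and 0 were called higher on both, which the median does not show. Whether the groups share a stem cell state cannot be read from it.

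The hormone receptor and luminal list held 6 tested genes of 15, of which 3 were lower and 1 higher (2 and 2 with the trends removed). The lower share was 50 and 33.3 percent, against 44.8 and 21.2 percent of all genes. The median of -0.93 or -0.58 was above 0 with the length trend removed (0.09) and after quantile normalization (0.55). XBP1, a factor of luminal secretory cells, was at 62.03, 60.6 and 61.9 FPKM against 136, 152 and 146. A further list was put together here from candidates of the paper, such as FA2H and IL2RG, and other genes added to them. The paper drew its candidates from the sorted fractions and kept those that also ranked low or high in SUM159PT. The level of these candidates in SUM159PT was thus part of how they were chosen, and is no independent observation. Of the 17 genes 13 were tested, 9 lower and 0 higher (6 and 0 with the trends removed). The lower share was 69.2 and 46.2 percent, against 44.8 and 21.2 percent of all genes. The median was below 0 on all 8 scales, -2.27 as deposited and -0.80 with the trends removed. WFDC2, a secreted protease inhibitor, was at 10.3, 9.11 and 10.4 against 174, 180.2 and 182 (log2 fold change -4.16 or -6.20). ITPR1, an intracellular calcium channel, was at 0.410, 0.438 and 0.498 against 8.67, 8.06 and 8.45, and IL6ST, the signalling chain shared by receptors of the interleukin-6 family, at 0.972, 0.947 and 1.53 against 61.2, 56.4 and 59.1. These were lower in every SUM159PT library, with -1.85 and -1.84 left after the trends were removed from -3.95 and -5.59. Another 4, FA2H, ALOX15B, IL2RG and TNNC1, had means under 1 FPKM over the 6 libraries.

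Cytokine genes gave some of the widest gaps. IL1B, interleukin-1 beta, was at 0.4999, 0.840 and 0.648 FPKM in SUM159PT and 274, 282 and 268 in the CSCs, and its sister cytokine IL1A at 0.541, 0.595 and 0.398 against 199.7, 203 and 198. IL8, the neutrophil chemokine also called CXCL8, was at 21.4, 25.6 and 18.3 against 1685, 1717 and 1691. CSF2, which encodes GM-CSF, was at 1.30, 1.16 and 1.15 against 82.6, 91.7 and 94.03, and IL6 was at 1.50, 1.70 and 1.21 against 19.3, 20.6 and 20.96. In none of these did a SUM159PT library come near a CSC library. Log2 fold changes were -8.52 or -7.76 for IL1B (limma adjusted p 1.37e-08 and 8.10e-08), -8.37 or -6.02 for IL1A, -6.29 or -4.10 for IL8, -6.10 or -6.98 for CSF2 and -3.71 or -2.79 for IL6. LIF, a relative of IL6, was at 1.75, 2.14 and 1.75 against 22.9, 22.8 and 23.4, and IL11, another of that family, at 0.160, 0.188 and 0.119 against 8.20, 8.28 and 8.80. CCL2, the monocyte chemokine, ran opposite at 2.36, 3.12 and 2.45 against 0, 0.0665 and 0.0560, as did CSF3, which encodes G-CSF, at 10.8, 9.40 and 10.4 against 0.767, 0.649 and 1.21, and CSF1, the macrophage growth factor, at 59.2, 64.96 and 61.3 against 26.2, 26.7 and 27.01. SUM159PT was thus higher for these 3, by 5.33, 1.98 and 1.02 with the trends removed. CSF1 was below the fold change limit with the GC trend alone removed (0.47) and as TPM (0.12). Of 18 tested cytokines 12 were lower on both scales (66.7 percent, against 44.8 and 21.2 percent of all genes). On each scale 4 were higher, of which 3 were higher on both. The median of -2.69 or -2.37 was below 0 on all 8 scales.

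The chemokines CXCL1 and CXCL2 lie together on chromosome 4 and moved together. CXCL1 was at 4.06, 3.83 and 3.53 FPKM in SUM159PT and 24.8, 21.04 and 27.6 in the CSCs, and CXCL2 at 18.6, 17.9 and 15.997 against 115, 115 and 117, with log2 fold changes of -2.65 or -2.34 for CXCL1 and -2.72 or -2.41 for CXCL2. Their promoters are shown since these genes moved together and share a motif, the kappaB consensus bound by NF-kappaB. Promoter windows of 300 bases, 250 before the start site and 50 from it, were taken from RefSeq (GRCh38.p14) and searched on both strands; the consensus was found in 6 of the 12 tested cytokine genes with an entry and in 5.91 percent of all 34796 distinct promoters. The other 4 were CXCL3, CCL20, IL6 and IL32, and their log2 fold changes did not all agree as deposited: -2.40 or -1.92 for CXCL3, -2.56 or -1.13 for CCL20 (0.62 with the GC trend alone removed), -3.71 or -2.79 for IL6 and 1.10 or -0.37 for IL32. Capitals mark the matching bases, and a match is a description of the sequence and not evidence of binding. Overlapping matches on the 2 strands run into each other.
CXCL1 (chr4:73869143-73869442, plus strand): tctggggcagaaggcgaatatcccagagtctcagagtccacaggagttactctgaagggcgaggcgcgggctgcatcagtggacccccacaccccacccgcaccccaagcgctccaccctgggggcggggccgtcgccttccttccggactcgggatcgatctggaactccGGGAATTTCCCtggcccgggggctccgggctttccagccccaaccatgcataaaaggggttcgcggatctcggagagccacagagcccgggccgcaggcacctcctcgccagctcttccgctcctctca
CXCL2 (chr4:74099146-74099445, minus strand): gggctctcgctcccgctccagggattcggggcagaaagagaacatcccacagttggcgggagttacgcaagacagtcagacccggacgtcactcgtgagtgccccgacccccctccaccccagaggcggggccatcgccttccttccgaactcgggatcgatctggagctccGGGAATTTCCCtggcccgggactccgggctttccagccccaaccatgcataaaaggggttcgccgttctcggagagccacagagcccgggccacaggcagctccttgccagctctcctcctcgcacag

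Subunits and feedback genes of NF-kappaB had a median nearer to 0 than the cytokines on all scales but that with the GC trend alone removed, where it was -1.25 against -1.14. Of 17 tested 7 were lower and 0 higher (8 and 0 with the trends removed; 41.2 and 47.1 percent lower, against 44.8 and 21.2 percent of all genes), and the median of -0.70 or -0.98 was above 0 when the libraries were centred (0.22). BIRC3, an inhibitor of apoptosis induced by NF-kappaB, was at 1.41, 1.69 and 1.89 FPKM against 78.7, 74.2 and 73.7, NFKBIZ, an inducible nuclear cofactor, at 2.18, 1.97 and 1.97 against 60.1, 58.5 and 58.03, and TNFAIP3, the feedback enzyme A20, at 6.05, 5.89 and 4.996 against 36.9, 36.7 and 35.3. All were lower in SUM159PT, with log2 fold changes of -1.95, -3.07 and -1.46 with the trends removed. NFKB1, the precursor of a DNA-binding subunit, was at 8.58, 6.94 and 7.21 against 24.999, 25.02 and 25.7, and was called on the deposited scale only (-1.73 or -0.80).

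In the TGF-beta, activin and BMP list the deposited median of -3.24 was one of the lowest, and it came to -0.61 with the trends removed; 15 of 23 tested genes were lower and 2 higher, against 9 and 1 with the trends removed (65.2 and 39.1 percent lower, against 44.8 and 21.2 percent of all genes), and the median was below 0 on all 8 scales. TGFBR2, the ligand-binding TGF-beta receptor, was at 7.62, 8.28 and 8.97 FPKM against 40.9, 38.9 and 41.3 and passed the fold limit only as deposited (-2.27 or -0.64). BMP2, a secreted ligand, was at 0.633, 0.572 and 0.468 against 19.1, 17.8 and 18.6, and SMAD7, the inhibitory SMAD, at 2.72, 2.22 and 2.65 against 29.7, 32.7 and 31.2. ID2, a target of BMP signals, was at 6.55, 5.73 and 5.07 against 62.6, 69.5 and 65.9. These were lower in all 3 SUM159PT libraries on either scale, with -4.39, -3.67 and -3.86 after the trends were removed. SMAD3, which carries the TGF-beta signal to the nucleus, was at 7.51, 7.95 and 7.77 against 84.3, 82.9 and 84.8 (-3.42 or -2.14).

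Of 25 tested genes of the Notch, Wnt and Hippo pathways 16 were lower and 4 higher, 10 and 3 with the trends removed (64 and 40 percent lower, against 44.8 and 21.2 percent of all genes), with a median of -2.18 or -0.53, below 0 on all 8 scales. HES1, the main target of Notch, was at 25.3, 20.5 and 20.8 FPKM in SUM159PT and 287, 302 and 275 in the CSCs, and the ligand JAG1 at 3.12, 3.98 and 3.23 against 31.6, 31.4 and 31.1. WNT7B, a ligand of the canonical branch, was at 3.09, 2.98 and 3.16 against 49.4, 48.4 and 48.6, and WNT5A, a ligand mostly of the non-canonical one, at 0.637, 0.733 and 0.741 against 33.4, 30.8 and 30.9. Ligands and target were lower without overlap, with log2 fold changes of -3.92 for HES1, -1.75 for JAG1, -4.30 for WNT7B and -2.33 for WNT5A with the trends removed. LRP5, a Wnt coreceptor, was higher at 31.04, 35.7 and 34.6 against 11.5, 11.3 and 11.2 (1.56 or 1.50), as was AJUBA, an adaptor that restrains the Hippo kinases, at 37.6, 38.9 and 39.3 against 15.5, 15.9 and 15.3 (1.31 or 1.79). YAP1, the Hippo effector, was at 3.29, 3.15 and 3.73 against 24.2, 23.6 and 24.3, where a deposited fold change of -2.79 came to -0.13.

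Receptor kinases and their ligands followed, with 14 of 22 tested lower and 3 higher (8 and 2 with the trends removed; 63.6 and 36.4 percent lower, against 44.8 and 21.2 percent of all genes) and a median of -2.17 or -0.49, below 0 on all 8 scales. DDR1, a collagen receptor of epithelium, was at 0.382, 0.0668 and 0.135 FPKM against 11.6, 9.97 and 10.7, and HBEGF, a ligand of the EGF receptor, at 2.36, 2.83 and 2.06 against 68.9, 75.97 and 69.2. VEGFA, the endothelial growth factor, was at 18.9, 19.2 and 16.3 against 289.5, 294 and 281. Each was lower without overlap, with log2 fold changes of -5.34 or -5.66 for DDR1, -4.84 or -4.53 for HBEGF and -3.99 or -5.32 for VEGFA. FGF2, a fibroblast growth factor, was at 0.888, 1.13 and 1.17 against 15.2, 13.7 and 14.8, yet its fold change of -3.66 came to -0.05 with the trends removed. ERBB2 kept its higher level in SUM159PT on both scales (2.39 or 2.25). Genes that MAPK signalling induces as its own brakes had a median of -1.54 or -0.94, below 0 on all 8 scales, with 15 of 20 lower and 1 higher (9 and 0 with the trends removed; 75 and 45 percent lower, against 44.8 and 21.2 percent of all genes). DUSP6, the phosphatase of ERK, was at 1.27, 1.31 and 1.05 against 45.5, 45.95 and 44.5, and SPRY4, a Sprouty inhibitor, at 3.17, 3.88 and 3.49 against 24.97, 25.2 and 24.8. Both were lower, with log2 fold changes of -3.39 and -3.29 with the trends removed.

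Immediate early genes answer within minutes to growth factors, heat or enzymatic detachment, and heat shock genes answer to protein damage; both are known to rise while tissue or cells are dissociated and sorted. FOS, a subunit of the AP-1 factor, was at 7.10, 9.09 and 7.34 FPKM in SUM159PT and 431, 458 and 438 in the SUM149PT CSCs, and its relative FOSB at 0.576, 0.424 and 0.781 against 169.8, 175 and 174. EGR1, a zinc finger factor, was at 24.9, 27.4 and 30.2 against 329, 308 and 318, and ATF3, a stress-induced repressor, at 1.18, 1.31 and 1.37 against 104, 108 and 105. All SUM159PT libraries lay far below all CSC libraries. Log2 fold changes were -5.81 or -5.97 for FOS, -7.99 or -8.18 for FOSB (limma adjusted p 1.89e-08 and 8.14e-08), -3.53 or -3.64 for EGR1 and -6.25 or -6.20 for ATF3. KLF2, another early factor, was at 2.85, 3.39 and 2.58 against 85.7, 73.2 and 67.7, and DDIT3, the CHOP factor of endoplasmic reticulum stress, at 7.40, 9.34 and 7.31 against 170.4, 205 and 176. Of 28 tested genes 22 were lower and 0 higher as deposited, and 23 and 0 with the trends removed. The lower share was 78.6 and 82.1 percent, against 44.8 and 21.2 percent of all genes. The list median was -3.16 or -2.72 and below 0 on all 8 scales (-4.25 to -2.24).

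Heat shock genes were part of this list. HSPA1A and HSPA1B encode nearly the same HSP70 protein and share reads, so their levels are uncertain singly; HSPA1A was at 0.0410, 0.0810 and 0 FPKM in SUM159PT and 8.97, 10.5 and 10.9 in the CSCs, and HSPA1B at 1.74, 1.83 and 2.41 against 49.9, 54.8 and 42.6. HSPH1, a cochaperone of HSP70, was at 0.302, 0.321 and 0.471 against 38.7, 40.5 and 37.95, and DNAJB1, a J-domain partner, at 21.6, 20.05 and 21.3 against 169.7, 186 and 177. HSP90AA1, the inducible HSP90, was at 3.54, 3.46 and 4.35 against 126, 137 and 127. Each of these was lower in all 3 SUM159PT libraries, with log2 fold changes of -5.14 for HSPA1B, -3.24 for HSPH1, -3.22 for DNAJB1 and -2.79 for HSP90AA1 with the trends removed. The constitutive HSPA8 was at 179, 191 and 163 against 513, 559 and 532, with -1.59 or -0.43. Not all of the list was lower as deposited: HSPB1, a small heat shock protein and the most abundant member in SUM159PT, was at 602, 566 and 562 against 473, 509 and 442 (0.28 or -1.74), and SOCS3, a feedback inhibitor of cytokine signals, and ZFP36, which destabilizes messages, were also higher without overlap as deposited (0.41 or -0.15 and 0.64 or -0.40); none of these 3 was called higher on either scale, and HSPB1 was called lower with the trends removed.

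The other sorted libraries place these values. FOS was at 243, 233 and 232 FPKM in SUM149PT non-CSC, 51.4, 53.2 and 52.2 in HCC1937 CSC and 76.3, 70.5 and 65.3 in HCC1937 non-CSC. ATF3 was at 105, 109 and 108 in SUM149PT non-CSC, 15.7, 13.9 and 15.6 in HCC1937 CSC and 23.1, 21.1 and 18.9 in HCC1937 non-CSC. For HSPH1 the values were 95.7, 94.4 and 87.6 in SUM149PT non-CSC, 32.9, 32.8 and 33.2 in HCC1937 CSC and 23.96, 25.004 and 24.6 in HCC1937 non-CSC. In each of these genes SUM159PT was below all 12 sorted libraries on the deposited scale. The trends were not removed from these values, though that with GC content set SUM159PT apart from every sorted library. How many of all genes lie below all 12 is not given here. IL8 was at 1485, 1184 and 1333 in SUM149PT non-CSC but at 57.8, 63.1 and 61.7 in HCC1937 CSC and 20.6, 26.1 and 24.4 in HCC1937 non-CSC, so that its top values belonged to SUM149PT in both fractions. No SUM159PT cells were sorted and no SUM149PT cells were left unsorted, so the part of sorting in these genes cannot be told apart from that of the line.

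**Figure D4:**
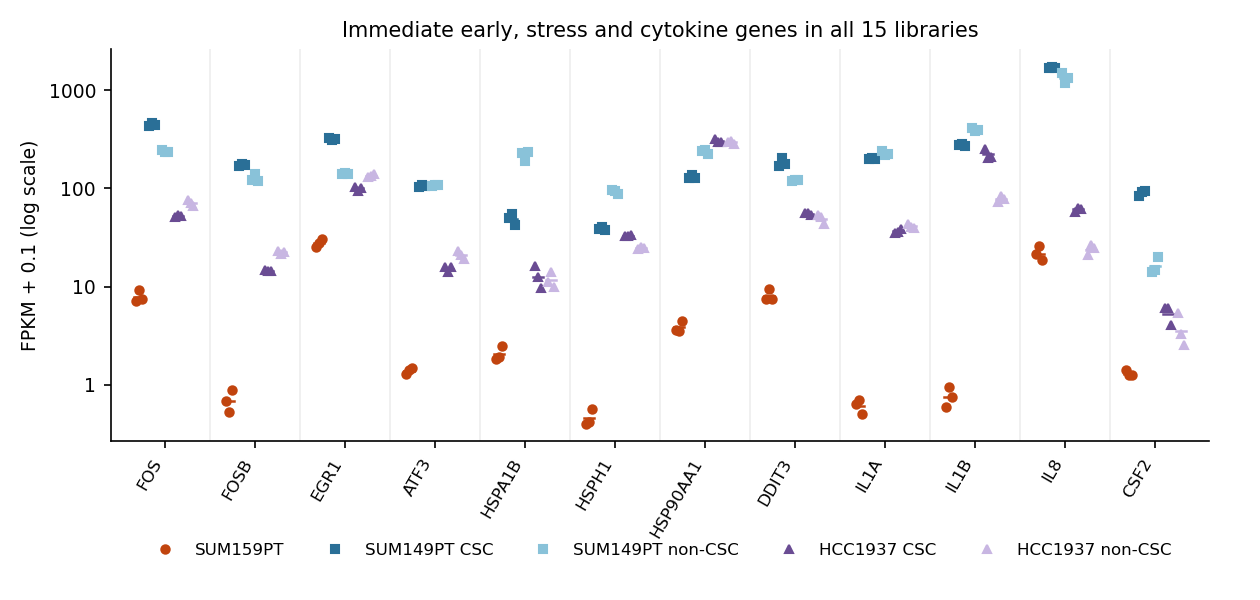
FPKM + 0.1 on a log scale (vertical axis) of immediate early, stress and cytokine genes in all 15 libraries, with 3 points for each group and short lines for the mean of the log values. SUM159PT (circles) lies below the sorted groups in FOS, FOSB, EGR1, ATF3, HSPA1B, HSPH1, HSP90AA1, DDIT3, IL1A and IL1B, and beside HCC1937 non-CSC for IL8.

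EGR1 is itself a target of serum response factor, whose binding motif is the CArG box. Its promoter (RefSeq, GRCh38.p14) is shown for its 2 matches to that motif, which was found in 1 of the 27 tested immediate early and stress genes with an entry and in 1.30 percent of all promoters. Capitals mark the matches, which begin 105 and 83 bases before the start site.
EGR1 (chr5:138465229-138465528, plus strand): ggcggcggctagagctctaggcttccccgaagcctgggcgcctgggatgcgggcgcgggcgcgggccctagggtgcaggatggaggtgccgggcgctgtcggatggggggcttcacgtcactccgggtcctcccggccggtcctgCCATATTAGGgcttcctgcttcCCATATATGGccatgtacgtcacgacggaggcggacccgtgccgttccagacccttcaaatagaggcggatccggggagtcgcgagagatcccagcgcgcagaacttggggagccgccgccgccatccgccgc

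The median of the cell cycle and replication genes was above 0 on all scales but TPM, against a median below 0 for all genes as deposited. E2F1, the factor that drives entry into DNA synthesis, was at 26.9, 25.6 and 27.2 FPKM in SUM159PT and 0.754, 0.592 and 0.673 in the CSCs. MCM2 and MCM5, subunits of the replicative helicase, were at 70.2, 67.7 and 68.7 against 4.22, 3.96 and 4.05 and at 58.8, 56.04 and 55.7 against 2.55, 2.85 and 3.26. TYMS, thymidylate synthase, was at 29.2, 26.05 and 26.1 against 3.02, 3.18 and 2.45, and MYBL2, a cell cycle factor under E2F control, at 27.7, 24.6 and 31.2 against 2.90, 3.05 and 2.98. All of these were higher in each SUM159PT library without overlap. Log2 fold changes were 5.11 or 4.40 for E2F1 (limma adjusted p 1.30e-08 and 1.11e-07), 4.04 or 3.79 for MCM2, 4.26 or 4.11 for MCM5, 3.20 or 3.10 for TYMS and 3.18 or 2.59 for MYBL2. The subunits MCM3, MCM4 and MCM7 were also higher on both scales, by 2.69, 2.68 and 1.95 with the trends removed, while MCM6 was lower as deposited at 1.74, 2.03 and 1.95 against 4.25, 4.34 and 3.91 (-1.09 or 1.25). A single helicase subunit thus changed direction with the trends.

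Mitotic genes divided by scale. FOXM1, the factor of late cell cycle genes, was at 18.8, 16.9 and 20.9 FPKM against 2.58, 2.79 and 2.42, BIRC5, or survivin, at 46.2, 41.3 and 46.3 against 5.47, 6.63 and 6.45, and PLK1, a mitotic kinase, at 45.8, 37.4 and 52.5 against 10.04, 11.8 and 9.37. Those 3 were higher by 2.81 or 2.94 for FOXM1, 2.83 or 3.10 for BIRC5 and 2.10 or 1.45 for PLK1. TOP2A, the mitotic topoisomerase, was lower as deposited at 1.76, 1.69 and 2.86 against 20.1, 19.8 and 20.4, with -3.24 or 0.12, and BUB1, a checkpoint kinase, was at 0.898, 0.724 and 1.33 against 6.09, 6.38 and 6.20, with -2.58 or -0.25. Transcripts of TOP2A and BUB1 have 39.1 and 42.9 percent GC, against 57.3 and 51.8 percent for PLK1 and BIRC5. CDK4, the G1 kinase, was at 259, 256 and 264 against 41.7, 47.6 and 40.7, its partner CCND3 at 107, 110.1 and 107 against 13.6, 15.9 and 15.99, and its relative CDK6 at 0.221, 0.307 and 0.232 against 9.68, 8.51 and 9.40. CDK4 and CCND3 were higher (2.21 and 1.89 with the trends removed) and CDK6 was lower (-4.72 or -1.15). Of 34 tested cell cycle genes 15 were higher and 9 lower as deposited, and 18 and 1 with the trends removed, when 22.5 and 21.2 percent of all genes were; the median of 0.54 or 1.27 was below 0 only as TPM (-0.50).

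**Figure D5:**
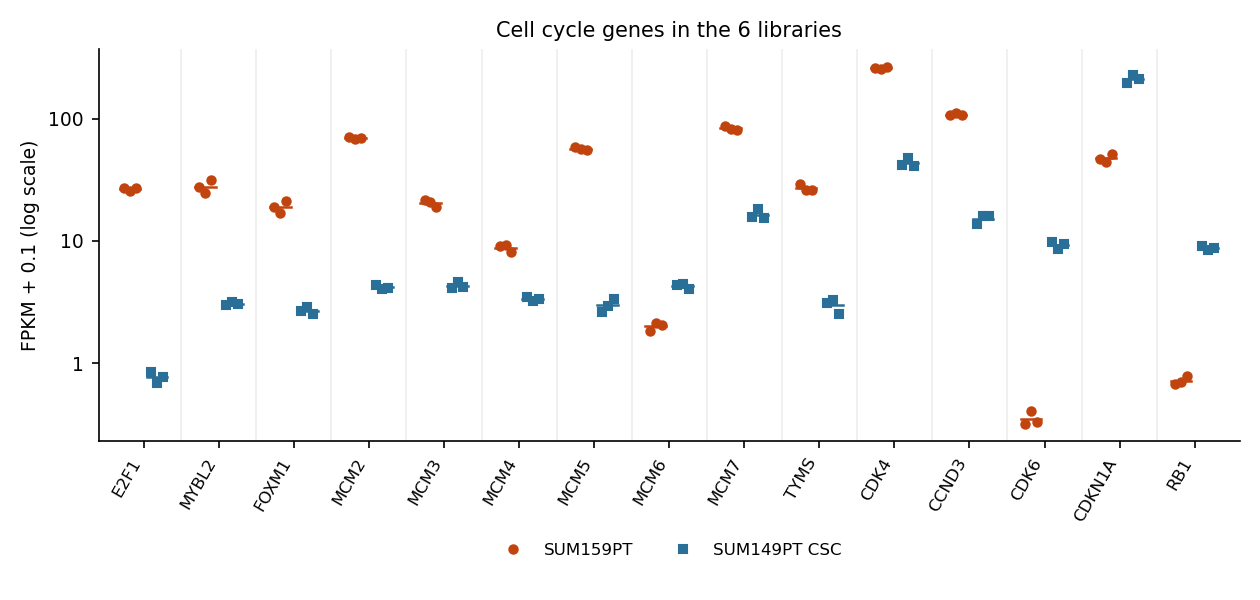
FPKM + 0.1 on a log scale (vertical axis) of cell cycle genes in the 3 SUM159PT libraries (circles) and the 3 SUM149PT CSC libraries (squares), with short lines for the mean of the log values. E2F1, MYBL2, FOXM1, TYMS and all helicase subunits but MCM6 are higher in every SUM159PT library, while CDK6, CDKN1A and RB1 are lower.

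Promoters of E2F1, MCM2 and MCM7 are shown since these genes were higher together and share the E2F motif. The motif was searched as TTTCCCGC, TTTCGCGC, TTTGCCGC and TTTGGCGC on both strands of the RefSeq promoters (GRCh38.p14), where 3.30 percent of all 34796 distinct windows hold it, and it was found in 9 of 27 tested cell cycle genes with an entry (33.3 percent). The other 6 were CDK1, CDC25A, PCNA, MCM3, MCM6 and TYMS, so that the motif was present in genes that were higher, not called and lower as deposited. Capitals mark the matches, on either strand.
E2F1 (chr20:33686336-33686635, minus strand): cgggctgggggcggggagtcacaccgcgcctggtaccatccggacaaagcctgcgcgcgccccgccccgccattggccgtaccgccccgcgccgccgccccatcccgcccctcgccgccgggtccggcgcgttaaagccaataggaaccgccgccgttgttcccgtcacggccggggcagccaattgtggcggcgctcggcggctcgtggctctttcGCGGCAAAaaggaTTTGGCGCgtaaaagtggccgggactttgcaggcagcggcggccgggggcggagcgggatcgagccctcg
MCM2 (chr3:127598161-127598460, plus strand): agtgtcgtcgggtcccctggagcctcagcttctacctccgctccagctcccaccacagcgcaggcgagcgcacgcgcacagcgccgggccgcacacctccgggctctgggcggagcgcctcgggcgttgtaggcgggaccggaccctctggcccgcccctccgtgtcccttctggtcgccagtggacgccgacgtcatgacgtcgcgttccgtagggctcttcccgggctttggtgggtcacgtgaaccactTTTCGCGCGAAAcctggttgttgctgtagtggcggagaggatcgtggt
MCM7 (chr7:100101348-100101647, minus strand): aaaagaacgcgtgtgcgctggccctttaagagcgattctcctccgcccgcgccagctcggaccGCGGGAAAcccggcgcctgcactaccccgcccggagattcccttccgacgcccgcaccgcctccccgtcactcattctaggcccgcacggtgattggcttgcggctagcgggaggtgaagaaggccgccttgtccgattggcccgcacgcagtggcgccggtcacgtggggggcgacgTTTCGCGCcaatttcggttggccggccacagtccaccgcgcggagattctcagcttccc

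Listed genes of CDK inhibition, RB and growth arrest, not all of them brakes on the cycle, were more often called lower than higher, on all 8 scales. CDKN1A, an inhibitor of CDKs, was at 46.2, 44.5 and 51.6 FPKM in SUM159PT and 196, 229 and 213 in the CSCs. GDF15, a cytokine induced by stress, was at 28.5, 28.8 and 28.7 against 613, 663 and 585, and MDM2, a ubiquitin ligase, at 0.617, 0.548 and 0.642 against 10.5, 10.1 and 11.1. They were lower, with log2 fold changes of -2.16 or -2.85 for CDKN1A, -4.43 or -6.26 for GDF15 and -3.93 or -1.66 for MDM2. RB1, the retinoblastoma gene, was at 0.579, 0.600 and 0.693 against 8.99, 8.26 and 8.73, but its fold change of -3.60 came to -0.29 with the trends removed. CDKN2A, a CDK4 inhibitor, was at 0.0438, 0.0448 and 0.0906 and 0.0233, 0 and 0.103, so neither group expressed it at a level that could be compared. Of 20 tested genes 12 were lower and 4 higher (10 and 3 with the trends removed; 60 and 50 percent lower, against 44.8 and 21.2 percent of all genes), with a median of -2.45 or -0.87, below 0 on all 8 scales. Homologous recombination genes turned over, from 7 lower and 4 higher of 13 to 0 and 6 with the trends removed. The lower share was 53.8 and 0 percent, against 44.8 and 21.2 percent of all genes. The higher share was 30.8 and 46.2 percent, against 24.4 and 22.5 percent. The list median was -1.27 as deposited and 0.74 with the trends removed, and above 0 on 3 of the 8 scales. FANCA, of the crosslink repair core, was higher on both, at 2.77, 2.97 and 2.66 against 0.841, 0.651 and 0.601 (1.87 or 2.27).

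Short messages of ribosomal proteins took a large share of the SUM159PT profile. The 79 cytosolic ribosomal protein genes summed to 185038, 177763 and 173964 FPKM in SUM159PT and 30977, 37938 and 34919.7 in the CSCs, 5.17 times as much on average, with RPL37A the most abundant in both. Of 75 tested 63 were higher and 1 was lower, and 50 and 1 with the trends removed. The higher share was 84 and 66.7 percent, against 24.4 and 22.5 percent of all genes. The list median was 2.19 or 1.39, and above 0 on all 8 scales. Only 27 were called higher after quantile normalization and 39 as TPM. These genes share reads with many processed pseudogenes, several were listed near 0 while others stood among the highest genes of the table, and single values are uncertain. RPL36A, the one called lower, was at 0.208, 0.233 and 0.0779 against 4.33, 4.05 and 4.43. Its low value is among the uncertain ones.

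Nuclear genes of the respiratory chain followed the same direction, with 41 of 51 higher and 3 lower as deposited and 24 and 0 with the trends removed. The higher share was 80.4 and 47.1 percent, against 24.4 and 22.5 percent of all genes. The median of 1.92 or 0.93 was above 0 on all 8 scales, with 21 called higher as TPM. COX5B, of cytochrome oxidase, was at 906, 840.2 and 859 FPKM against 98.1, 122 and 114, and ATP5G1, of the ATP synthase ring, at 228, 248 and 230.2 against 22.9, 28.3 and 25.5. NDUFV1, a core subunit of the first complex, was at 225, 213 and 230.2 against 32.1, 37.7 and 34.7. All were higher without overlap, by 1.78, 1.62 and 2.06 with the trends removed. None of the 15 listed genes encoded in mitochondrial DNA is in the deposited table. Messages of replication-dependent histone genes lack a poly(A) tail and are poorly captured by oligo(dT). Of 22 such genes 6 were tested, and 3 were higher and 0 lower (2 and 0 with the trends removed). The higher share was 50 and 33.3 percent, against 24.4 and 22.5 percent of all genes. The list median was above 0 on all 8 scales, 1.40 or 0.47. HIST1H1C, a linker histone, was at 69.5, 86.7 and 82.5 against 7.80, 10.04 and 10.8.

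The median of the antioxidant genes under NRF2 was above 0 on all 8 scales although the gene of NRF2 was lower. NFE2L2, which encodes NRF2, was at 2.56, 2.68 and 3.44 FPKM in SUM159PT and 98.3, 96.7 and 93.2 in the CSCs, and KEAP1, which marks it for degradation, at 33.5, 32.1 and 32.8 against 5.40, 5.54 and 6.05. Factor and inhibitor thus stood in opposite order, with -5.02 or -3.41 for NFE2L2 and 2.51 or 2.00 for KEAP1. NQO1, a quinone reductase and classical target, was at 93.7, 96.3 and 90.2 against 25.2, 26.6 and 27.5, and GPX1, glutathione peroxidase, at 1269, 1056 and 1212 against 94.9, 116 and 108. FTL, the ferritin light chain, was at 8971, 8425 and 8457 against 1339.9, 1629 and 1456, though ferritin genes share reads with pseudogenes. SLC7A11, the cystine transporter and also a target, was lower, at 0.457, 0.346 and 0.562 against 48.7, 43.7 and 45.8. Values with the trends removed were 3.36 for NQO1, 1.60 for GPX1 and -2.59 for SLC7A11. Of 25 tested genes 13 were higher and 6 lower (10 and 5 with the trends removed), with a median of 1.34 or 0.54. The higher share was 52 and 40 percent, against 24.4 and 22.5 percent of all genes. Under quantile normalization 8 were higher and 8 lower, and as TPM 6 and 9.

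Genes of glycolysis and of the response to hypoxia went both ways as deposited. CA9, a carbonic anhydrase under HIF control, was at 3.41, 3.68 and 7.21 FPKM in SUM159PT and 31.4, 34.4 and 34.2 in the CSCs, ADM, or adrenomedullin, at 13.3, 14.6 and 12.9 against 162, 181 and 170.5, and NDRG1 at 32.8, 41.5 and 40.1 against 213, 223 and 219. The transporter SLC2A1 was at 47.1, 45.2 and 47.5 against 125, 132 and 129, and HK2, an inducible hexokinase, at 3.54, 4.42 and 3.75 against 38.01, 36.5 and 36.96. All were lower in every SUM159PT library, with log2 fold changes of -4.24, -4.68, -2.74, -1.40 and -2.15 with the trends removed. PKM and ENO1, enzymes of glycolysis itself, were higher as deposited, at 556, 553 and 603 against 245, 255 and 258 and at 989, 1026 and 997 against 364, 421 and 385, and were not called with the trends removed (0.69 and 0.68). Of the 28 genes of glycolysis and hypoxia 13 were lower and 5 higher, and 11 and 2 with the trends removed (46.4 and 39.3 percent lower, against 44.8 and 21.2 percent of all genes), with a median of -0.83 or -0.62 that was 0.09 when centred and below 0 on the other 7 scales.

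Genes of cholesterol and fatty acid synthesis also went both ways. HMGCS1, the synthase at the head of the pathway, was at 0.403, 0.362 and 0.348 FPKM against 23.6, 23.5 and 24.2, and SQLE, squalene epoxidase, at 4.32, 4.15 and 4.72 against 106, 107 and 108. No library overlapped in these, and the values with the trends removed were -2.91 and -3.13. PMVK, a kinase further along the pathway, was higher at 52.8, 51.8 and 61.6 against 5.27, 6.39 and 5.37 (3.27 or 1.59), as was FASN, the fatty acid synthase, at 75.4, 97.8 and 96.03 against 38.8, 34.6 and 36.5 (1.28 or 1.54). Over 25 tested genes 11 were lower and 4 higher (9 and 4 with the trends removed; 44 and 36 percent lower, against 44.8 and 21.2 percent of all genes), and the median of -0.51 or -0.34 was above 0 when centred (0.40) and with the length trend removed (0.63).

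Interferon-stimulated genes stood apart from all genes mainly with the trends removed. OAS1, which makes the activator of RNase L, was at 0.194, 0.234 and 0.0598 FPKM in SUM159PT and 2.22, 3.33 and 2.64 in the CSCs, and IFIH1, the RNA sensor of long double strands, at 0.228, 0.371 and 0.320 against 9.72, 9.85 and 9.99. XAF1, a proapoptotic interferon target, was at 0.0374, 0 and 0.0261 against 5.73, 6.16 and 5.43, and IFI6 at 53.4, 51.4 and 50.5 against 122, 141 and 115. The order was the same in all of them, with -3.87, -2.35, -3.27 and -3.00 after the trends were removed. IFITM2, which blocks viral entry, was higher at 392, 356 and 345 against 35.5, 44.4 and 41.96 (3.17 or 1.55), though its sequence is close to that of IFITM3 and reads may be shared. Of 24 tested 13 were lower and 5 higher, and 13 and 1 with the trends removed. The lower share was 54.2 and 54.2 percent, against 44.8 and 21.2 percent of all genes. The list median was -1.16 or -1.09, below 0 on all 8 scales. Summed FPKM of the list was nevertheless larger in SUM159PT, 4010, 3733 and 3727 against 1148, 1366 and 1209, with IFITM3 the most abundant in both groups. The list of class I antigen presentation had 4 of 12 lower and 1 higher (3 and 2 with the trends removed). Its lower share was 33.3 and 25 percent, against 44.8 and 21.2 percent of all genes. Its median of 0.11 or -0.20 was above 0 on 4 of the 8 scales. When centred 6 were higher and 2 lower. TAP2, of the peptide transporter, was at 6.46, 4.41 and 9.78 against 23.5, 44.5 and 52.9 (-2.53 or -2.85).

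HOX genes keep the position identity of a cell's origin, and 13 of 34 were tested. No HOX gene was called higher as deposited and 3 were lower (1 and 3 with the trends removed). The lower share was 23.1 percent on both scales, against 44.8 and 21.2 percent of all genes. The median of 0.17 or -0.73 was above 0 on 4 of the 8 scales. When centred 7 were higher and 2 lower, and 6 and 0 after quantile normalization. HOXC10 was the most abundant in both groups, at 36.1, 33.6 and 37.6 FPKM in SUM159PT and 23.5, 24.9 and 25.7 in the CSCs, and HOXA5 was lower at 0.761, 0.723 and 0.705 against 3.93, 4.48 and 3.96 (-2.35 or -2.46). Summed over the 34 genes FPKM was 72.03, 68.3 and 73.6 against 66.8, 68.7 and 69.96, ranges that overlap. Cancer-testis antigens, normally silent outside the germ line, had 5 of 10 higher and 2 lower on both scales. The higher share was 50 percent, against 24.4 and 22.5 percent of all genes. The median was 1.52 or 1.24, above 0 on all 8 scales. PAGE5 was at 30.3, 30.8 and 28.3 against 1.42, 2.23 and 2.04, MAGEC2 at 7.19, 8.59 and 7.79 against 0.960, 1.23 and 1.11, and the RNA-binding IGF2BP3 was lower at 0.0846, 0.0596 and 0.0400 against 3.07, 2.71 and 2.97. Free of the trends they differed by 3.15, 3.32 and -1.34.

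Outside the lists, genes were named for the largest difference on both scales among those at 10 FPKM or more in the higher group. There were 993 such genes higher in SUM159PT and 987 lower, called on both scales and without overlap. AZGP1, a secreted zinc-binding glycoprotein, led the higher ones at 120.2, 129.6 and 121 FPKM against 0.310, 0.371 and 0.326 (8.15 or 6.98; limma adjusted p 6.81e-09 and 1.02e-08). IL1R2, the decoy receptor for interleukin-1, was at 15.4, 18.8 and 12.2 against 0.0406, 0.0451 and 0.0187, in the group where IL1A and IL1B were low. FPR1, a receptor for formyl peptides, was at 17.4, 19.5 and 16.5 against 0.0881, 0.0979 and 0.213, and SAA1, the acute phase serum amyloid, at 2151, 2536 and 1884 against 26.7, 31.5 and 26.6; SAA1 has a near-identical neighbour and its share of reads is uncertain. NNMT, which methylates nicotinamide, was at 381, 416 and 381 against 9.29, 10.2 and 10.4, and EDN2, the vasoactive peptide endothelin, at 83.7, 90.5 and 82.1 against 0.452, 0.412 and 0.790. All of these were higher in every library. The adhesion molecule CADM3 (6.36 with the trends removed), BEX1 (6.33), VSTM2L (6.26), the neuronal pentraxin NPTX2 (5.72), the antigen XAGE2 (5.56) and the small RNA BCYRN1 (6.13) complete the 12. BCYRN1 is a short transcript with Alu-like sequence, at 126, 67.2 and 161 against 0, 3.91 and 4.75, and is uncertain.

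Among the 12 lowest were FOSB, IL1B, KRT19 and HSPA1A, given above. SOX9, a factor of epithelial progenitors, was at 0.0618, 0.0875 and 0.109 FPKM in SUM159PT and 30.9, 29.6 and 31.2 in the CSCs (-7.37 or -6.66). ACKR3, an atypical chemokine receptor, was at 0.0363, 0.331 and 0.114 against 38.4, 42.4 and 38.3, HSPA6, an inducible HSP70, at 0.104, 0.121 and 0.123 against 22.7, 25.6 and 22.8, and CLDN14, a claudin, at 0.0295, 0.0619 and 0.0311 against 21.7, 23.8 and 23.4. They were lower in all libraries, with log2 fold changes of -6.92, -7.42 and -8.23 with the trends removed. KRTAP21-2, a hair keratin associated protein, was listed at 0 in SUM159PT and at 8.21, 11.7 and 11.97 in the CSCs, so that no fold is given.

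The last 3 of the 12 lowest were small nucleolar RNAs, which guide RNA modification, lie in introns of host genes and carry no poly(A) tail. SNORA18 was listed at 0 in all SUM159PT libraries and at 1399.99, 987 and 326 FPKM in the CSCs, SNORA8 at 0 and 829.8, 749.96 and 708, and SNORA63 at 0 and 949, 509.7 and 503. They also head the 30 genes under 0.1 FPKM in every SUM159PT library with a mean of at least 10 in the CSCs, followed by SNORA52, SNORA48 and SNORA45, which were themselves listed at 0 in at least 1 of the CSC libraries. In the other direction 10 genes met the rule, and its first 6, SNORA70, SNORA44, SNORA10, SNORA5A, SNORA71C and SNORA5C, were each above 0 in only 1 SUM159PT library (SNORA70 at 540.1 in replicate 2). Of 385 snoRNA symbols in the table, 5, 10 and 5 were above 0 in the SUM159PT libraries and 17, 14 and 16 in the CSC libraries. FPKM of so short a gene can rest on few fragments, and whether they reflect the RNA itself or reads of the host was not tested.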

How the data were processed

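The authors deposited 1 table of FPKM values, with 33158 gene symbols in 15 columns, each matched to a library by its title (0 columns were left without a sample). The submitters' processing notes name Bowtie2 and GRCh38; the quantification tool, the annotation and any scaling between libraries are not given in the sources used here. Depth per library is unknown, and the precision rests on 3 libraries per group.

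Values were analysed as log2(FPKM + 0.1) for genes averaging 1 FPKM or more, with limma 3.58.1 (lmFit, eBayes) in R 4.3.3 and Benjamini-Hochberg adjustment over all tested genes. Python 3.11.15 with pandas 2.3.3 and matplotlib 3.10.9 made the summaries and plots. GC content and length came from GENCODE release 29, in which 10631 of the 11021 tested genes matched by symbol or synonym. For each library, natural splines of 5 degrees of freedom on GC content and on log2 length were fitted to the deviation of each gene from its mean over the 6 libraries and subtracted, and the limma fit was repeated. The transcript standing for each gene was first that of middle length, and was changed to the longest APPRIS principal transcript after values of single genes had been seen. This changed the genes called with the trends removed from 5620 to 4649, with 3509 called in the same direction under both choices.

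Any gene of the 38 lists could be named. To these were added the 12 highest and 12 lowest genes averaging 10 FPKM or more in the higher group, called in the same direction in both fits and without overlap between groups, ordered by the smaller of the absolute fold changes, and, among genes under 0.1 FPKM in all libraries of a group that average 10 or more in the other, the 6 with the highest mean in each direction. Members and lists were chosen with earlier results of these data known, so lists are described by counts and medians without a test. Some genes that count in these lists are not reported here. Library totals were compared by two-sided exact permutation tests. In simulated data of 10631 genes, with 100 changed at each of 2 fold changes, 9 unchanged genes had an adjusted p within 0.05 without a trend, 9403 with a strong GC trend left in and 8 after the splines on GC content and length were subtracted (no trend on length was simulated). The slope of that trend was chosen and not fitted to the data, and no fold change limit was applied. Scaling, pseudocount, minimum, eBayes options, the replicate block and leaving out each library were tried as alternatives.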

Additional observations from a re-analysis of the deposited data

How the results depend on the processing

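The number of genes called, 7617 as reported, was 4649 with both trends removed and 4641 at a log2 fold change limit of 2. It was 7620 with the replicate number as a replicate block, and 7430 to 7762 when any library was left out. Genes higher in SUM159PT, 2685 as reported, numbered 4331 after centring and 1013 as TPM, and 2630 to 2766 with a library left out. Genes lower, 4932 as reported, numbered 2707 with the GC trend removed and 2255 with both trends removed, and 4735 to 5132 with a library left out. With the trends removed, leaving out a library gave 4567 to 4776 calls, 2350 to 2432 higher and 2213 to 2344 lower, and the replicate block gave 4647. Why the scalings differ was not tested.

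The transcript of middle length, an alternative chosen after seeing the data, gave 5620 calls with the trends removed, 2920 higher and 2700 lower. Of the 4649 calls, 75.5 percent were called in the same direction under it, which is 62.4 percent of its own, and 45 were called in opposite directions.

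Most named genes kept their sign under the alternatives tried on the deposited scale; other splines and the transcript of middle length were tried for the number of calls only. With both trends removed the log2 fold change was 0.77 for CD44, 0.69 for CDK1, 1.25 for MCM6, 0.52 for PCNA, 0.99 for PDPN, 0.12 for TOP2A and -0.37 for IL32, each against its deposited sign. With the GC trend alone removed it was 0.62 for CCL20, 0.12 for CD44, 1.56 for CDK1, 1.12 for MCM6, 1.60 for PCNA and 0.83 for PDPN. With the length trend alone removed it was 0.47 for CD44, 0.11 for MCM6 and 0.67 for PDPN. Centring gave 0.84 for PCNA and 0.70 for PDPN, quantile normalization 0.28 for MCM6 and -0.16 for TGFBI, and TPM -0.11 for CD68, -0.61 for CDC25A and -0.56 for HOXC10. HSPB1 reversed at -0.89 after quantile normalization, -0.81 as TPM, -0.67 with the GC trend removed, -0.66 with the length trend removed and -1.745 with both, SOCS3 at -0.67 as TPM, -0.35 with the GC trend removed and -0.15 with both, and ZFP36 at -0.45 as TPM and -0.40 with both. In each case the cause was not tested. SNORA48 and SNORA52 lost their adjusted p of 0.05 when single libraries were left out. Among the named genes that lost it under a scaling or trend removal were BUB1 and CSF1. The limma adjusted p of BUB1 was 0.111 with the GC trend removed and 0.216 with both, and that of CSF1 was 0.135 as TPM.

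List medians reversed with both trends removed for squamous differentiation and S100 (-1.20), homologous recombination (0.74), class I presentation (-0.20) and HOX genes (-0.73). They reversed when centred for the mesenchymal list (0.72), NF-kappaB (0.22), glycolysis and hypoxia (0.092) and cholesterol synthesis (0.405), and the cause was not tested.

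Replicate numbers do not pair the groups. After subtraction of the group means, libraries of the same number correlated across genes at -0.07, 0.01 and -0.05. No read counts are given, so the depth needed to detect the genes listed at 0 is unknown.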
